A study of Mus musculus with 8 samples.

Results

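The interleukin-17 (IL-17) cytokines and their receptors were followed as 7 genes chosen by name: the cytokines *Il17a*, *Il17f* and *Il17d* and the receptor chains *Il17ra*, *Il17rb*, *Il17rc* and *Il17re*. Reads were found for 5 of the 7, in each library for all 5, so that they make up 5 of the 13704 genes with at least 1 read in the RNA-seq libraries. *Il17d* and *Il17rb* had reads in neither. In cells without TRIM28, *Il17a* was 5.43-fold and *Il17f* 8.46-fold lower than in wild-type (WT) cells, whereas *Il17ra* was read at the same level in both. The remaining receptor chains carried few reads or none.

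IL-17A and IL-17F are the signature cytokines of T helper 17 (Th17) cells, and they are secreted as homodimers of either chain or as a heterodimer of both. They bind a receptor made of IL-17RA and IL-17RC, found mainly on epithelial cells, fibroblasts and other stromal cells, where the adaptor Act1 (gene *Traf3ip2*) passes the signal to TRAF6, NF-κB and C/EBP factors and so raises chemokines, antimicrobial proteins and mRNA-stabilising regulators. IL-17RA is shared by the family: with IL-17RB it receives IL-25, and with IL-17RE it receives IL-17C. In T cells the transcription of *Il17a* and *Il17f* depends on STAT3 together with BATF and IRF4.

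The cells were mouse CD4+ T cells of the C57BL/6 strain, taken from spleen and lymph nodes by sorting for naive cells (CD4+, CD25-, CD62L high and CD44 low). They were activated with plate-bound anti-CD3 and anti-CD28, cultured for 3 days with 0.5 ng per ml TGF-β and 20 ng per ml IL-6 to give Th17 cells, and stimulated again with anti-CD3 before RNA was taken. The WT library was compared with a knockout (KO) library of the genotype TRIM28fl/flxCD4cre, in which Cre under the *Cd4* promoter deletes the floxed gene during thymic development and so in all αβ T cells, CD8 T cells included. Whether the WT mice carried floxed alleles or Cre, how many mice gave each library and how old they were is not given in the sources used here. The series holds 8 samples, of which the 6 chromatin samples were not analysed here.

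There was 1 library per genotype. Except where a variation between libraries is assumed, every interval and p-value below therefore covers only the counting of reads within these 2 libraries. None of them measures the difference between mice or cultures. They compare the libraries, not the genotypes, and no difference has a replicate check. The WT library held 6650066 reads on 13078 genes and the KO library 6185108 on 12754, so that 3 reads, taken as the floor of detection, equal 0.451 and 0.485 counts per 1000000 counted reads (CPM). *Trim28* itself, the targeted gene, had 4485 reads (674 CPM) in WT and 180 (29.1 CPM) in KO, 23.1-fold lower. The 8 genes on the αβ CD4 T cell list, general T cell genes besides *Cd4*, were all read in both libraries. They summed to 5006 CPM in WT and 4364 CPM in KO. Their median log2 fold change was 0.01, with a range from -0.67 (*Cd28*) to 0.24 (*Cd247*). Because these are bulk libraries, fewer cells making a transcript and less transcript per cell cannot be told apart.

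*Il17a* and *Il17f* lie next to each other on mouse chromosome 1, and the 250 bases before each start site are shown because these are the members whose level differed most. The sequences are RefSeq's for GRCm38.p6, counted from the start of the curated transcript (chr1:20730905 for *Il17a* and chr1:20784270 for *Il17f*, whose gene span runs further 5′ through a predicted transcript), and written 5′ to 3′ in the direction of each gene. Capitals mark the letters AGGTCA, or TGACCT where they lie on the opposite strand, which is the hexamer that many nuclear receptors recognise.
Il17a chr1:20730655-20730904 (plus strand): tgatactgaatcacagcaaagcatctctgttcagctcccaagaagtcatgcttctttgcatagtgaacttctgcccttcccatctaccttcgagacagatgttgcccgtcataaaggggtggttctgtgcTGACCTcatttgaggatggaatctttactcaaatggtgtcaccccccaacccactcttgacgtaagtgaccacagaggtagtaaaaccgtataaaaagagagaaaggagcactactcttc
Il17f chr1:20784271-20784520 (minus strand): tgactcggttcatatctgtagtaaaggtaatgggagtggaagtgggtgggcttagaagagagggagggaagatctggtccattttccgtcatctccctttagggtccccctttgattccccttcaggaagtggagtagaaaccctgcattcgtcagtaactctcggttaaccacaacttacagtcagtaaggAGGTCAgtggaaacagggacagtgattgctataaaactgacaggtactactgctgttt

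Each window held the hexamer once, 120 to 115 bases before the start of *Il17a* and 58 to 53 bases before that of *Il17f*. Searched on both strands, AGGTCA was present in 14% of all 32851 mouse promoter windows of this length. TATAAA, the letters of a TATA box, lay 31 to 26 bases before the start of *Il17a* and 29 to 24 before that of *Il17f*, and was present in 12.4% of all windows. TGANTCA, an AP-1 type site of the kind BATF and JUN proteins bind, was found in *Il17a* 244 to 238 bases before the start and not in *Il17f* (6.75% of all windows). GGAAA, the core that NFAT recognises, was found 2 times in *Il17f* and not in *Il17a* (55.6% of all windows), and TTCNNNGAA, the STAT pattern, in neither (7.02%). None of these matches overlapped another. Among the other members, 4 have a window in the promoter table (*Il17d*, *Il17rb*, *Il17rc* and *Il17re*), and none of the 4 windows held AGGTCA. The motifs were chosen with the expression values known, and a match describes letters only.

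The cytokines. *Il17a* encodes IL-17A and lies at chr1:20730905-20734496 on the plus strand of GRCm38, in 3 exons. It had 2226 reads in the WT library, 335 CPM (95% interval 321 to 349), and 381 in the KO library, 61.6 CPM (55.6 to 68.1). The WT level was above the KO level and the counting intervals did not overlap. The log2 fold change was -2.44 (-2.60 to -2.28), a 5.43-fold lower level in KO (adjusted p = 9.24e-285, exact binomial test of the reads, Benjamini-Hochberg adjustment over 10881 genes).

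*Il17f*, encoding IL-17F, lies at chr1:20777146-20785274 on the minus strand, also in 3 exons, so that the 3′ ends of both genes face each other across 42649 bases. It had 3143 reads in WT, 473 CPM (456 to 489), and 345 in KO, 55.8 CPM (50 to 62). Again the WT level was the higher and the intervals were apart. The log2 fold change was -3.08 (-3.25 to -2.92), 8.46-fold lower in KO.

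*Il17d* encodes IL-17D, a cytokine made mostly outside the lymphoid system (chr14:57524829-57543166). It had 0 reads in both libraries, under the floor of 3 reads (0.451 CPM in WT and 0.485 CPM in KO). No fold could be given. Of the cytokine genes outside the 7, *Il17c* had 2 reads in WT and 1 in KO, and *Il17b* and *Il25* had none in either library.

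A gene was tested where the libraries together held 10 reads or more, and was called where its adjusted p was under 0.05 and its level differed at least 2-fold. Of the 7 members 4 were tested, of which 2 were called lower in KO and 0 higher. Over all 10881 tested genes this rule called 8.11%, with 5.53% lying lower and 2.57% higher in KO, and the median log2 fold change was -0.02. By the 2-fold limit alone the members past it were again 2 lower and 0 higher, beside 7.94% and 3.75% of all tested genes. Both times these were *Il17a* and *Il17f*.

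**Figure D1:**
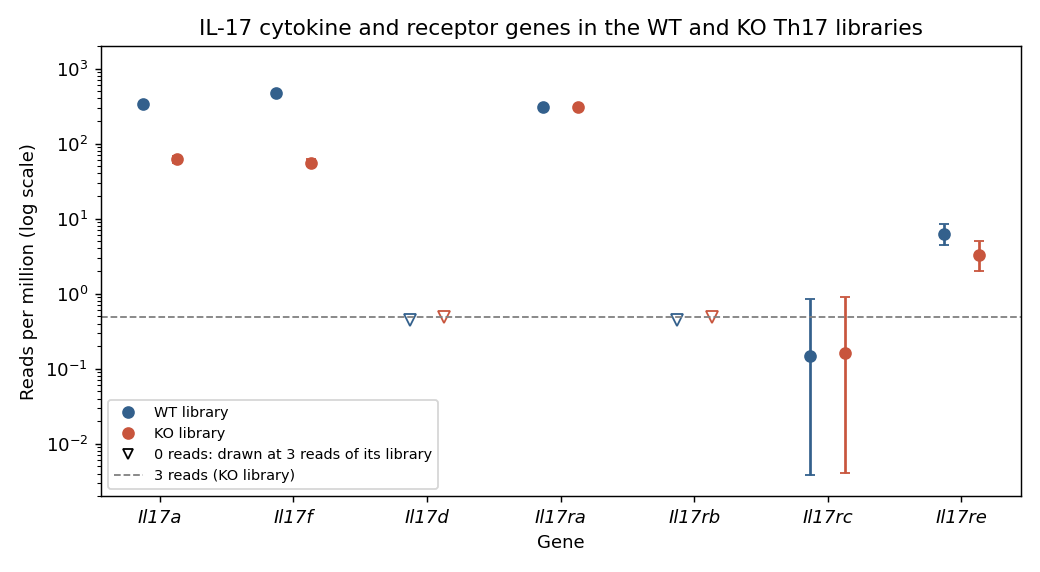
Level of the 7 members in the WT and KO libraries, in CPM on a log axis, with exact Poisson 95% intervals that cover counting error only. The dashed line is the floor of 3 reads in the KO library (0.485 CPM), and open triangles mark genes with 0 reads at the floor of their library. *Il17a* and *Il17f* stand at 335 and 473 CPM in WT and 61.6 and 55.8 CPM in KO, *Il17ra* at 307 CPM in both, *Il17re* at 6.17 and 3.23 CPM, and *Il17rc*, *Il17d* and *Il17rb* at or under the floor.

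Taken as a sum, *Il17a* and *Il17f* contributed 5369 reads to the WT library, 807 CPM (786 to 829), and 726 to the KO library, 117 CPM (109 to 126). The sum was 6.87-fold lower in KO (log2 fold change -2.78, -2.90 to -2.67). The balance of both transcripts within that sum also differed. *Il17a* made up 41.5% of it in WT (exact binomial 95% interval 40.1 to 42.8) and 52.5% in KO (48.8 to 56.2). WT cells thus had 1.41 *Il17f* reads for each *Il17a* read, and KO cells 0.906. Since the longest transcripts are nearly equal in length (1171 and 1178 bases), the ratios per length were 1.4 and 0.9. The log2 fold change of *Il17a* exceeded that of *Il17f* by 0.64 (0.41 to 0.87), a 1.56-fold difference between the folds (Fisher's exact test, p = 2.54e-08, 5.09e-08 adjusted over the 2 pairs of members compared). That interval was -0.51 to 1.79 when a coefficient of variation of 0.2 between libraries was assumed.

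**Figure D2:**
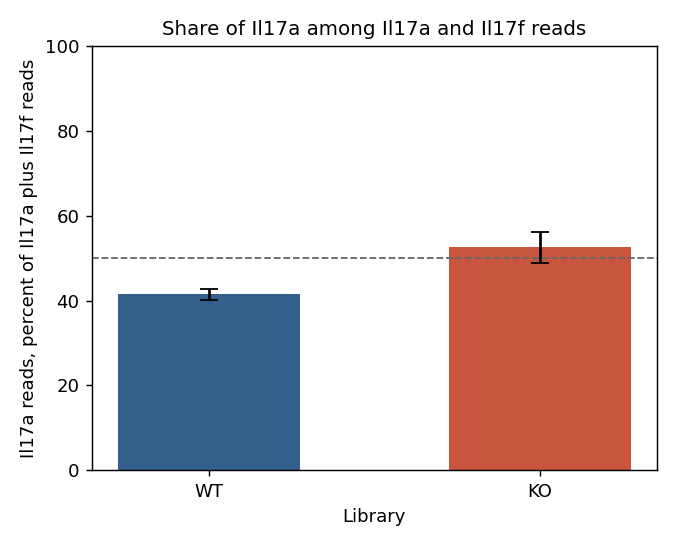
Bars show the share of *Il17a* in the summed *Il17a* and *Il17f* reads of each library, in percent, with its exact binomial 95% interval, and the dashed line marks equal shares. *Il17a* is the smaller part in WT (41.5%) and slightly the larger in KO (52.5%).

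Placed among all genes by reads per kilobase of the longest transcript at the CPM scale (RPKM), *Il17f* was the 133rd most abundant transcript of 12944 with a read and a length in WT and the 1612th of 12633 in KO. *Il17a* moved from place 179 to 1459. Both genes have 1 curated transcript, and genes with more had fewer reads at the median (given below). The part of this in the places was not tested. Among the 2321 genes with a mean of at least 100 CPM, *Trim28* alone had a lower log2 fold change than *Il17f*, and *Il17a* came directly after *Il17f*. In that abundant set 35 genes were called lower and the median log2 fold change was 0.03. Over all 10881 tested genes, many of them with few reads, 63 had a log2 fold change at or below that of *Il17f* and 118 at or below that of *Il17a*, each count including the gene itself.

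**Figure D3:**
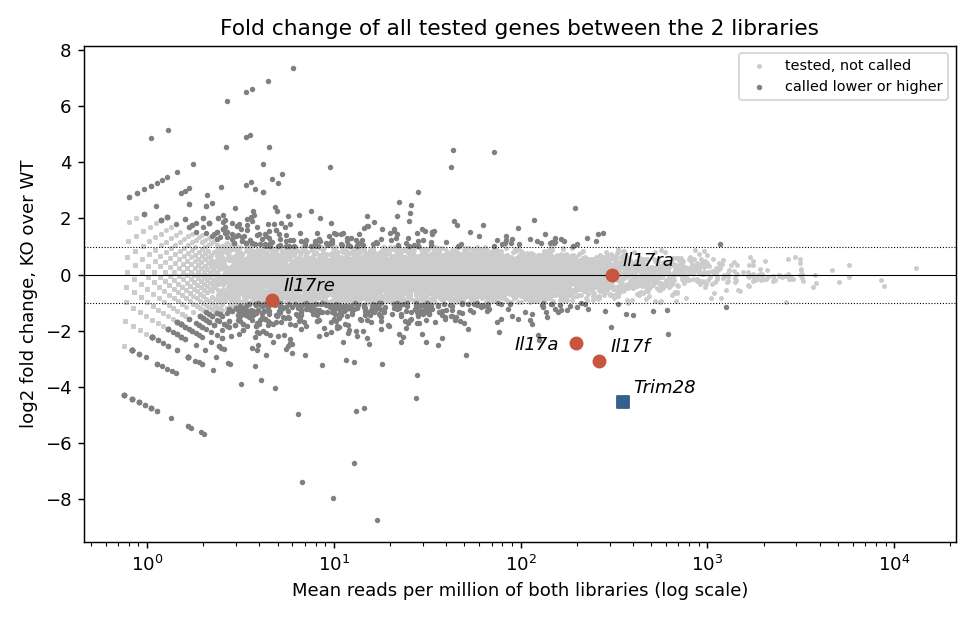
Log2 fold change of KO against WT for each of the 10881 tested genes against the mean level in CPM (log axis), with the 4 tested members and *Trim28* marked and dotted lines at 2-fold. *Il17a* (-2.44) and *Il17f* (-3.08) lie below nearly all genes of their level, *Il17ra* (0.00) lies at the median of all genes (-0.02), and *Il17re* (-0.91) lies in the wide cloud of genes with few reads.

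The 5 genes nearest to *Il17a* in log2 fold change, among 2952 genes with at least 500 WT reads, the members themselves left out, were *Myo10*, *Gja1*, *Maf*, *Ahr* and *Lgr4*. *Myo10*, an unconventional myosin of filopodia, had 1395 reads in WT and 256 in KO (log2 fold change -2.34). *Gja1*, the gap junction protein connexin 43, had 1352 and 280 (-2.16). *Maf* and *Ahr* both encode transcription factors known in Th17 cells, and their reads went from 6699 to 1431 (-2.12) and from 816 to 185 (-2.03). *Lgr4*, a receptor for R-spondins, had 599 and 76 reads (-2.87). With *Il17a* again left out, these 5 were also the nearest to *Il17f*, *Lgr4* first at a distance of 0.22. Likeness here is over 2 libraries only and measures the size of 1 fold change.

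The neighbours of *Il17a* and *Il17f* differed among themselves. *Mcm3*, a subunit of the replicative helicase, is the next gene beside *Il17f*, 17691 bases away, and had 3289 reads in WT and 3452 in KO (log2 fold change 0.17, 0.11 to 0.24, not called). *Paqr8*, a membrane progesterone receptor 105273 bases from *Il17f*, had 269 and 98 reads and was called lower (log2 fold change -1.35, -1.70 to -1.01, adjusted p = 7.74e-16, exact binomial test). This call was lost when a variation of 0.2 between libraries was assumed. On the side of *Il17a*, *Pkhd1* (112822 bases away) and *Tfap2b* had no reads in either library.

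**Figure D4:**
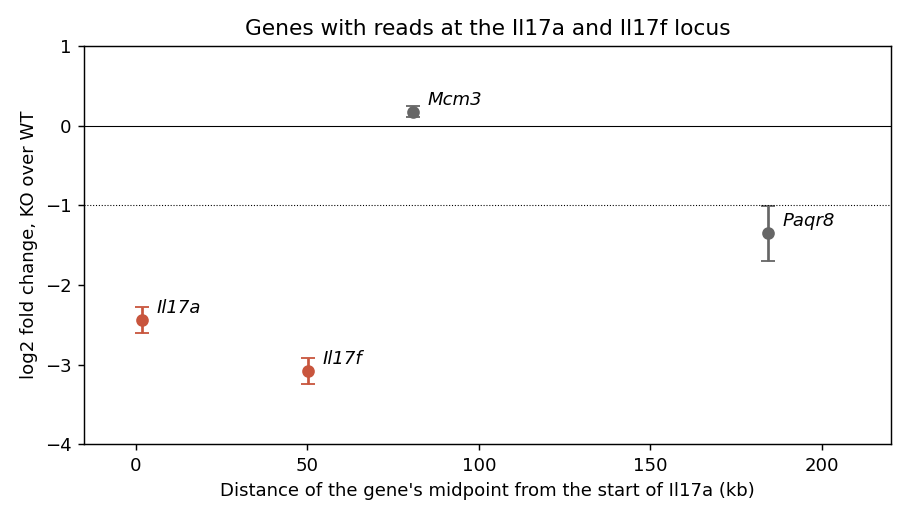
Log2 fold change (KO against WT, 95% counting interval, dotted line at 2-fold lower) of *Il17a*, *Il17f* and their neighbours with reads, placed by the distance in kb of each gene's midpoint from the start of *Il17a*. *Il17a* (-2.44), *Il17f* (-3.08) and *Paqr8* (-1.35) lie below 0, *Mcm3*, which lies between *Il17f* and *Paqr8*, is at 0.17. *Pkhd1* and *Tfap2b*, with no reads, are not drawn.

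The receptors. *Il17ra* encodes the shared chain and is the receptor gene of the family with the most reads in these T cells. It lies at chr6:120463181-120483731 on the plus strand, in 13 exons. It had 2043 reads in WT and 1898 in KO, which is 307 CPM in each (294 to 321 and 293 to 321). The levels coincided. The log2 fold change was 0.00 (-0.09 to 0.09), so that a difference beyond 0.09 on the log2 scale in either direction lies outside the counting interval. Across all genes, the fold change varied with transcript length, and at the 7752 bases of the longest *Il17ra* transcript the fitted curve stood at -0.40. With that curve taken off, the log2 fold change of *Il17ra* was 0.40 (adjusted p = 1.61e-16, exact binomial test), still under 2-fold and so not called. The same curve stood at 0.25 for *Il17a* and *Il17f*, whose corrected values were -2.69 and -3.33.

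*Il17re* encodes the chain that pairs with IL-17RA to receive IL-17C (chr6:113458699-113470758, plus strand, 16 exons). It had 41 reads in WT, 6.17 CPM (4.42 to 8.36), and 20 in KO, 3.23 CPM (1.98 to 4.99). The WT value was the higher, with overlapping intervals. The log2 fold change was -0.91 (-1.78 to -0.13; adjusted p = 0.0469, exact binomial test), 1.88-fold lower and under the 2-fold limit, so it was not called. It was called when the limit was set at 1.5-fold. Its adjusted p was over 0.05 with no filter on low counts and at an assumed variation of 0.1, 0.2 or 0.4. In the other alternatives it stayed under 0.05. An antisense long non-coding gene, *Gm52872*, overlaps *Il17re*, and whether the counting used strand is not stated, so reads of both cannot be told apart. The log2 fold change of *Il17ra* exceeded that of *Il17re* by 0.93 (0.12 to 1.78, Fisher's exact test, p = 0.0196, 0.0196 adjusted over 2 pairs). This pair was chosen after the counts were seen, and its interval reached 0 with 5 reads added to each count (-0.04 to 1.63) or at an assumed coefficient of variation of 0.1 (-0.03 to 1.89).

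*Il17rc*, the chain that completes the receptor for IL-17A and IL-17F, begins 696 bases after the end of *Il17re* (chr6:113471455-113483163, plus strand, 18 exons). It had 1 read in WT and 1 in KO (0.15 and 0.162 CPM), under the floor in both, and no fold could be given. *Il17rb*, the chain for IL-25 (chr14:29996168-30008896, minus strand, 11 exons), had 0 reads in both. *Il17rd*, a further family receptor outside the 7, had 13 and 6 reads (log2 fold change -0.95, -2.69 to 0.48, adjusted p = 0.279, exact binomial test).

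Few reads for *Il17re* and *Il17rc* need not mean few transcripts. In these tables the median number of reads of a protein-coding gene with a read was 351 where RefSeq lists 1 curated transcript, 128 for 2, 88 for 3 to 4, and 70.5 for 5 or more. These medians leave out genes without a read. The share of genes with a read did not fall in the same way: 53.6% for 1 curated transcript, 69.4% for 2, 72.5% for 3 to 4 and 70.9% for 5 or more. *Il17ra*, *Il17d* and *Il17rb* have 1 such transcript each, *Il17rc* has 2 and *Il17re* has 5. *Runx1*, *Nfatc1* and *Nfkbiz*, genes commonly expressed in activated T cells, have several curated transcripts and no reads in either library. The part of this in the counts of *Il17re* and *Il17rc* was not tested.

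None of the tested genes beside the receptors or *Il17d* was called, too few genes to read against the 8.11% of all tested genes called. *Tmem121b* (3 reads in each library), *Prrt3* (0 and 1), and *Chdh*, *Cacna1d* and *Cidec* (no reads) were not tested. Next to *Il17ra*, *Kdm5a*, a histone H3 lysine demethylase, had 872 and 520 reads (log2 fold change -0.64, -0.80 to -0.48) and *Hdhd5* 289 and 346 (0.36). *Kdm5a* was at -0.13 with the length curve taken off, and without that curve it was called lower at a limit of 1.5-fold. *Ccdc77*, with 26 and 43 reads there (0.82), and *Jagn1*, with 6 and 11 reads beside *Il17rc* (0.93), were the highest and had few reads. Next to *Il17re* and *Il17rc*, *Creld1* had 68 and 73 (0.21, -0.29 to 0.71). Next to *Il17rb*, *Actr8* had 243 and 207 (-0.13) and *Selenok* 507 and 526 (0.16). Next to *Il17d*, *Ift88* had 42 and 38 (-0.04), *Cryl1* 53 and 67 (0.44), *Eef1akmt1* 117 and 147 (0.43) and *Xpo4*, a nuclear transport receptor, 156 and 104 (-0.48).

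Levels of different members can be compared per length only. In WT the order by RPKM was *Il17f* at 401 (387 to 415), *Il17a* at 286 (274 to 298), *Il17ra* at 39.6 (37.9 to 41.4), *Il17re* at 2.1 (1.5 to 2.84) and *Il17rc* at 0.0653, and the intervals of neighbours from *Il17f* to *Il17re* did not overlap. This order held with coding length and with merged exon length. Other lengths do not address the fewer reads of genes with several curated transcripts, of which *Il17re* and *Il17rc*, lowest in the order, have 5 and 2. In KO the values closed up: *Il17a* was at 52.6 RPKM (47.5 to 58.2), *Il17f* at 47.4 (42.5 to 52.6) and *Il17ra* at 39.6 (37.8 to 41.4), followed by *Il17re* at 1.1 (0.672 to 1.7). The intervals of *Il17a* and *Il17f* met in KO, and so did not place either above the other. The KO order also hung on the length used. By coding length *Il17ra* (118) stood between *Il17a* (129) and *Il17f* (115), and by merged RefSeq exons, where *Il17ra* is 3970 bases long, it stood first at 77.3.

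The wider pathway was described with lists drawn up from the known roles of their genes, although earlier results of these libraries were known. Of 31 genes of IL-17 receptor signalling, 29 had reads and were tested, 1 was called lower (3.45%, beside 5.53% of all genes) and 0 higher, with a median log2 fold change of -0.09. The gene called was *Tab3*, an adaptor of the kinase TAK1, with 160 and 73 reads (-1.02). It was not called once the length or the GC curve was taken off, with 5 reads added to each count, or at an assumed variation of 0.2 or 0.4. The adaptor *Traf3ip2* had 515 and 345 reads (-0.47) and the ubiquitin ligase *Traf6* 1137 and 733 (-0.53), neither called. The C/EBP factors were the highest of the list, with *Cebpb* at 147 and 259 reads (0.92, 0.62 to 1.22) and *Cebpd* at 25 and 46 (0.97), both under 2-fold. *Cebpd* was called higher once the length curve was taken off. At a limit of 1.5-fold *Tab3* was called lower, and *Cebpb*, *Cebpd* and *Traf5* were called higher. Over all tested genes that limit called 11.5% lower and 764 of 10881 higher, and these few genes were not tested against it. The NF-κB subunits *Nfkb1* (0.07) and *Rela* (0.10) and the RNase gene *Zc3h12a* (-0.09) were near the median of all genes.

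Genes that IL-17 raises in its target cells carried few reads. Of 18 on the list, 13 had no reads in either library, among them the chemokine *Cxcl1*, *Lcn2* (lipocalin-2), *S100a8* and *S100a9*. With 4 tested, 2 were called lower, too few to read against the 5.53% of all tested genes. *Ccl20*, the ligand of CCR6, had 12 reads in WT and 0 in KO (adjusted p = 0.00185, exact binomial test). With KO set at the floor of 3 reads it was 3.72-fold lower (log2 fold change -1.90). The counting interval from the 12 and 0 reads themselves, not from the floor, reached up to -1.37 on the log2 scale. *Mmp13*, a collagenase, had 12 and 2 (log2 fold change -2.22, -5.68 to -0.31, adjusted p = 0.0333 by the exact binomial test). Both rest on few reads: neither was called at an adjusted p under 0.001 or at an assumed variation of 0.2, and *Ccl20* alone was called at a variation of 0.1 or with a curve for GC content taken off. *Icam1*, an adhesion molecule of T cells too, had 470 and 447 (0.03). The median over the 4 was -1.09, and -0.93 with *Ccl20* at -1.90, but 0.03 with no filter on low counts (5 genes) and 0.03 where each library had to hold 10 reads (*Icam1* alone).

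Of 21 genes known to activate *Il17a* and *Il17f* transcription, 17 were tested, 5 were called lower (29.4%, beside 5.53% of all tested genes) and 0 higher, with a median log2 fold change of -0.83 beside -0.02 over all tested genes. The lowest was *Rora*, a nuclear receptor that takes part in Th17 differentiation, with 258 and 45 reads (-2.40), followed by *Maf* (-2.12) and *Ahr* (-2.03), given above. *Tgfbr1*, a TGF-β receptor chain, had 449 and 165 reads (-1.34) and *Nfatc2* 88 and 32 (-1.34). *Irf4* (10145 and 5222 reads, -0.85), *Hif1a* (8907 and 4615, -0.84) and *Ep300* (2694 and 1409, -0.83) were lower in KO but under the 2-fold limit. In the other direction, *Batf* had 499 and 784 reads (0.76) and the IL-21 receptor *Il21r* 1713 and 2398 (0.59), also not called. *Stat3* had 93 and 102 (0.24). The count of 5 became 4 with the length curve taken off, without *Nfatc2*, and 3 with a variation of 0.2 between libraries assumed, namely *Ahr*, *Maf* and *Rora*. It was 0 at a variation of 0.4, and at a limit of 1.5-fold 10 activators were called lower and 2 higher. Of all tested genes, 4.32% were called lower with the length curve taken off, 1.2% at a variation of 0.2 and 0.0827% at 0.4. The 1.5-fold limit called 11.5% of all tested genes lower and 764 of 10881 higher. The median of the activators was -0.51 with the length curve taken off and -0.70 with the GC curve taken off.

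Of 18 genes known to restrain *Il17a* and *Il17f*, 15 were tested, and 0 were called in either direction, with a median log2 fold change of 0.00. *Foxp3*, the factor of regulatory T cells, had 1 and 8 reads and was too low to test. *Tbx21*, the gene of T-bet, had 62 and 79 reads, *Gata3* 75 and 100 (0.52) and *Bcl6* 309 and 414 (0.53), none of them called. *Bach2* (4049 and 2044, -0.88), *Foxo1* (2509 and 1421, -0.72) and *Tcf7* (9975 and 6363, -0.54), factors of the resting T cell, were lower in KO and not called. The lowest of the tested genes were *Stat5b* (137 and 67, -0.92) and *Gfi1* (45 and 22, -0.91), also not called. At a limit of 1.5-fold 4 repressors were called lower, *Bach2*, *Foxo1*, *Gfi1* and *Stat5b*, and 0 higher. That limit called 11.5% of all tested genes lower.

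**Figure D5:**
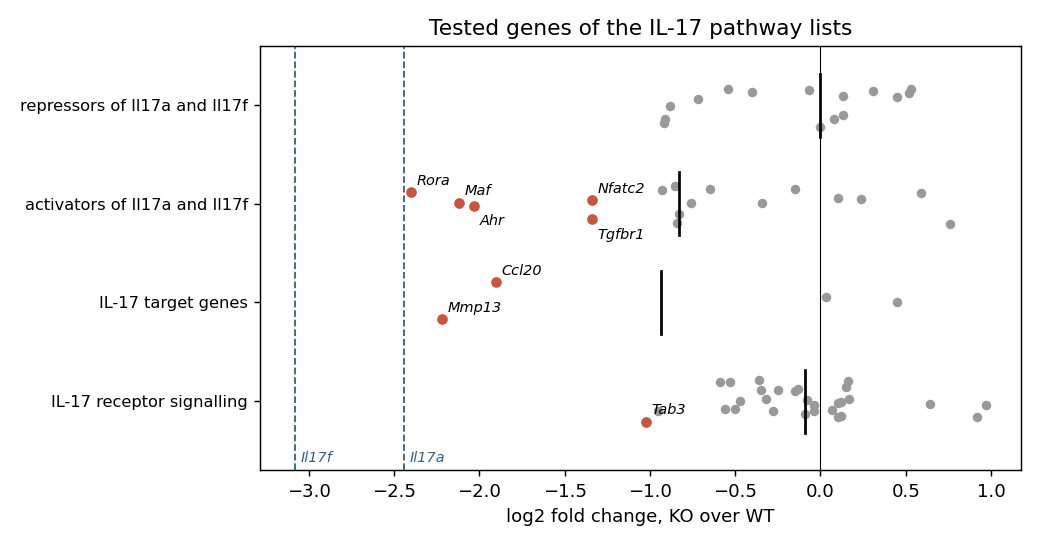
Log2 fold change (KO against WT) of each tested gene in the 4 pathway lists, with called genes in red and named, the median of each list as a vertical bar, and *Il17a* and *Il17f* as dashed lines. *Ccl20*, with 0 reads in KO, is drawn at -1.90, its value with KO set at the floor of 3 reads, as in the median of its 4-gene list (-0.93, and 0.03 with no filter on low counts). The median of the activators is -0.83 (-0.51 with the length curve taken off), while those of receptor signalling (-0.09) and repressors (0.00) lie near that of all tested genes (-0.02).

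Cells other than CD4 T cells that can make IL-17 were sparse by their markers. The 7 genes of the γδ T cell list were all at or below 3 reads, summing to 0.902 CPM in WT and 0.323 CPM in KO, but the constant segments on it, *Trdc* among them, are not counted in these tables, nor are the αβ segments *Trac* and *Trbc1*, so the list bears on γδ T cells only through its remaining genes. The 6 genes of NK cells and innate lymphoid cells had no reads in either library. CD8 T cell genes summed to 7.97 and 4.69 CPM, mostly *Cd8b1* with 52 and 27 reads, B cell genes to 12.5 and 7.11 CPM, myeloid genes to 2.26 and 1.78 CPM, and mast cell and basophil genes to 0.15 and 0 CPM. Of the tested genes on these lists, *Cd79b* of B cells was called lower, with 15 and 2 reads. The part of such cells in the levels of *Il17a* and *Il17f* was not tested.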

How the data were processed

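RNA-seq was analysed for 2 libraries, 1 of WT and 1 of KO Th17 cells. The authors deposited 1 table of read counts per gene for each, with no normalization, and per the file headers these are uniquely assigned reads. The study's methods name SOAP2 and the mm10 genome, and the submitters' processing notes list HTSeq, Bowtie, bcl2fastq and SICER 1.1 without a role. Strandedness and the treatment of genes with several transcripts are not given in the sources used here. The total in each header equalled the sum of the counts, so an unlisted gene was taken as 0 reads.

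Each of the 10881 genes whose reads in WT and KO came to 10 or more was tested by an exact binomial test (SciPy 1.17.1). The KO part of the summed library totals was the null share, and p-values were adjusted by Benjamini-Hochberg. A call needed an adjusted p under 0.05 and at least 2-fold, with 0.5 added to each count for folds. A quasi-likelihood fit was not possible, since 1 library per genotype leaves no residual degrees of freedom. Other than at an assumed variation, intervals are exact 95% Poisson, binomial or odds-ratio intervals and cover counting error only, since reads carry no molecular identifiers. Pair intervals at an assumed variation are normal approximations that add it to the counting error. CPM is per 1000000 counted reads and RPKM uses the longest transcript, known for 99.2% of tested genes. Pairs of members were compared by a two-sided Fisher's exact test. The planned comparison of *Il17ra* with *Il17rc* had no value, as *Il17rc* was at the floor, and *Il17re* took its place. Gene symbols were matched to current names for 13050 of 13704 genes directly, 602 through older symbols, and 52 not at all. Named genes are the 7 members, their neighbours, the 5 nearest in fold change, every called gene of a pathway list, and other list genes by their known role, these last chosen with their values known. The script was tested on simulated counts. Alternatives used TMM and DESeq2 1.42.0 size factors, upper-quartile scaling, other filters and thresholds, length and GC curves (loess, span 0.3), and edgeR 4.0.16 exact tests with an assumed coefficient of variation. For 2 genes of the planned pathway lists, results are not reported here, and list counts and medians leave them out. The members and lists were chosen with earlier results of these data known.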

Additional observations from a re-analysis of the deposited data

How the results depend on the processing

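Of 92 alternative values for the members, 82 left the call or the order as reported, or a count of calls within 1.5 times of it. This share does not measure robustness. Calls entered it both by gene and as totals, and a stricter p or more assumed variation could not call *Il17ra*, which had the same level in both libraries. Over the alternatives the log2 fold change ran from -2.69 to -2.31 for *Il17a*, -3.33 to -2.98 for *Il17f*, -0.03 to 0.40 for *Il17ra* and -0.98 to -0.78 for *Il17re*. With 1 library per genotype the spread between cultures is unknown, so edgeR exact tests were run with a variation set by hand: at 0.2 *Il17a* and *Il17f* were still called, and at 0.4 the members called lower came to 0, with *Il17a* at -2.44 (adjusted p = 0.918) and *Il17f* at -3.08 (adjusted p = 0.251). Over the other alternatives 2 members were called lower, except 3 at a limit of 1.5-fold, where *Il17re* (-0.91) joined. The difference between *Il17a* and *Il17f* of 0.64 had an interval of -0.51 to 1.79 at an assumed variation of 0.2. That between *Il17ra* and *Il17re* was 0.77 with 5 reads added (-0.04 to 1.63), and 0.93 at an assumed variation of 0.1 (-0.03 to 1.89) or 0.2 (-0.44 to 2.30). In the KO order of levels per length, 2 members changed place with coding length and 3 with merged exon length, because *Il17ra* has other lengths there. Genes called lower and higher over the whole table numbered 602 and 280, and 389 and 184 with at least 10 reads in each library, 370 and 170 at an adjusted p under 0.001, 131 and 65 at an assumed variation of 0.2, 9 and 7 at 0.4, and 1248 and 764 at 1.5-fold. The share of calls that were lower was 68.3%, and 56.2% at 0.4. Scaling by TMM, DESeq2 or upper-quartile factors changed no call of a member. Differences in *Il17d*, *Il17rb* and *Il17rc* were not detectable at this depth and have no alternative values. No paired analysis was possible because there is 1 library per genotype and the labels give no replicate numbers.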
